A study of Mus musculus with 30 samples.

Results

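The subject is the course from embryonic stem cell to embryoid body in the mouse line labelled Puf60_mEx5_HOM. The label stands for a homozygous deletion of exon 5 of Puf60, and the name deleted line below follows the label. The members of the course were chosen by their titles and are 4 of the 30 samples of the series: replicates A and B of the line as embryonic stem cells (ESC) and replicates A and B as day 8 embryoid bodies (EB8). Embryoid bodies are floating aggregates in which stem cells differentiate. RNA was selected for polyA tails and sequenced with a strand-marking library protocol changed to give longer inserts, and splicing and expression were read from it.

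All lines come from CGR8 mouse embryonic stem cells, grown on gelatin. For EB8, cells were aggregated without the cytokine LIF and given retinoic acid at 6 µM at 2 time points, on the way to glutamatergic neurons. The ESC groups are the undifferentiated cultures. The comparison groups are the parental cells, labelled WT and not edited, and the line Puf60_pEx5_HOM, which carries constitutive exon 5 on both alleles, each with 2 libraries at ESC and 2 at EB8. The edited lines are clonal and were made with CRISPR-Cas9. Separate clones are mentioned for the series, yet no label assigns replicate A or B to a clone. The p-values here therefore reflect the scatter of A and B, part of which may be technical. The 4 libraries of the line held 33736915 and 35353788 spliced reads at ESC and 27667359 and 26920461 at EB8, within the range of 23204150 to 38571969 of all 30.

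PUF60 is an RNA-binding splicing factor related to U2AF65 that binds pyrimidine-rich sequence near 3′ splice sites and helps the spliceosome to recognise them. Exit from pluripotency under retinoic acid gives neural progenitors and then neurons with hindbrain and spinal cord identity, because retinoic acid activates Hox genes and its own degrading enzymes. In the same course the splicing programme changes: the repressor PTBP1 declines, and the neuronal factors PTBP2, SRRM3, SRRM4, RBFOX, NOVA and CELF proteins appear. Microexons, exons of only 3 to 27 nt that are included mainly in neurons, depend largely on SRRM4 and its paralogue SRRM3.

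The edited exon was read in every library first, because it checks the labels. Exon 5 is 51 nt long and lies at chr15:76074607-76074657 of mm10 on the minus strand, the fifth exon of transcript Puf60-202, which has 12. The labels give an upstream guide, shown because it was used to make the deletion. It was found in 0 of the 11 annotated Puf60 transcripts.
Upstream guide: ctttgcagcaggaccggcga

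Reads that join the upstream exon to exon 5 numbered 6 in ESC A, 2 in ESC B, 1 in EB8 A and 3 in EB8 B of the deleted line. Reads that skip the exon numbered 911, 843, 797 and 1006 in the same libraries. Counted on the upstream junction alone, inclusion was therefore 0.654%, 0.237%, 0.125% and 0.297%, against 21.9% and 18.4% in WT at ESC and 27.9% and 25.9% in WT at EB8. The upstream junction thus matched the label in each of the 4 libraries. The junction that leaves exon 5 towards exon 6 did not follow it. It had 160, 210, 268 and 314 reads in ESC A, ESC B, EB8 A and EB8 B, which is 14.9%, 19.9%, 25.2% and 23.8% of that junction's reads plus skipping reads, and in WT 25.6%, 25.6%, 29.01% and 29.4%. Reads of this junction hold the end of exon 5, so at least that end was still present in RNA of the line. How much of the exon the edit removed was not tested. The table's own read-balance mark was B2 in the 4 libraries of the deleted line and OK in those of WT. Percent spliced in (PSI), which averages both junctions, was 7.49 and 10.03 at ESC and 13.01 and 12.26 at EB8. Its change of 3.87 points (log2 ratio of inclusion to exclusion reads 0.60 ± 0.24 SE) missed the threshold (limma, adjusted p = 0.0826). WT had 22.4 and 20.71 at ESC and 26.93 and 26.13 at EB8, a change of 4.97 points with adjusted p = 0.200.

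**Figure D1:**
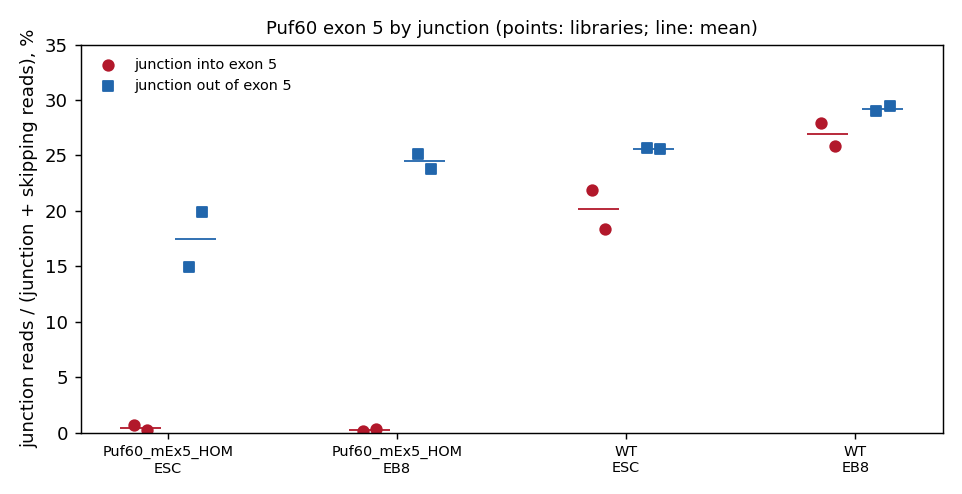
Puf60 exon 5 junctions in each library of Puf60_mEx5_HOM and WT at ESC and EB8. The vertical axis is the share of junction reads in junction plus skipping reads, in percent; each point is a library and each line a mean of 2. The junction into exon 5 is below 1% in all 4 libraries of the deleted line, while the junction out of it lies at 14.9% to 25.2%.

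The intron that spans exon 5 in the table also differed in the line. Its boundary that stands second in the table's order had 76 and 142 unspliced reads at ESC and 112 and 116 at EB8, against 9 to 28 in the 4 WT libraries, whereas spliced reads were 433 and 406, then 395 and 457, in the line and 606 to 685 in WT. The level of Puf60 was also lower than in WT. The line had 220.1 and 211.0 CPM (spliced reads scaled to a common library size) at ESC and 227.9 and 250.3 at EB8, and WT had 340.9, 324.9, 331.4 and 315.4. Both libraries of each stage lay below all 4 of WT. Between the stages, Puf60 moved by 0.15 ± 0.07 on the log2(CPM + 1) scale (limma, adjusted p = 0.0534), which missed the threshold. Rbm38, the other edited gene of the series, had 95.3 and 78.4 CPM at ESC and 33.3 and 31.9 at EB8 in this line.

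The line also differs from its parent in sex-linked genes. Eif2s3y, Ddx3y, Uty and Kdm5d on the Y chromosome had 0 reads in its 4 libraries (at most 3 reads per library at such a count), whereas WT had 2386 and 2078 reads of Eif2s3y at ESC and 1107 and 1257 at EB8. Xist, the RNA that coats an inactive X, had at most 1 read in each of these 8 libraries. Mid1, a microtubule-associated ubiquitin ligase of the X chromosome next to the pseudoautosomal boundary, had 2.26 and 2.79 CPM at ESC and 15.1 and 16.8 at EB8, against 288 to 326 in WT. Any difference from WT below is therefore one between a clonal edited line and parental cells that differ in more than exon 5. The part of these other differences in it was not tested.

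Expression was read as spliced reads per gene, scaled to CPM, and a gene is said to have risen or fallen at a Benjamini-Hochberg adjusted p under 0.05 with at least a 2-fold change on the log2(CPM + 1) scale. That scale makes changes of weakly expressed genes look smaller than they are. From ESC to EB8, 3340 of 13929 genes rose in the deleted line (24.0%) and 2798 fell (20.1%). In WT 3019 rose (21.7%) and 2536 fell (18.2%). The median over all genes was 0.06 in the line. Scaling to the total of reads in place of median ratios raised that median to 0.36 and the share of calls that were rises from 54.4% to 67.9%, and in WT from 54.4% to 74.1% with 1487 falls. The medians of lists below are to be read against 0.06, the median over all genes, and their counts against 24.0% rises and 20.1% falls. In bulk RNA, fewer cells of a type and less RNA per cell cannot be told apart.

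**Figure D2:**
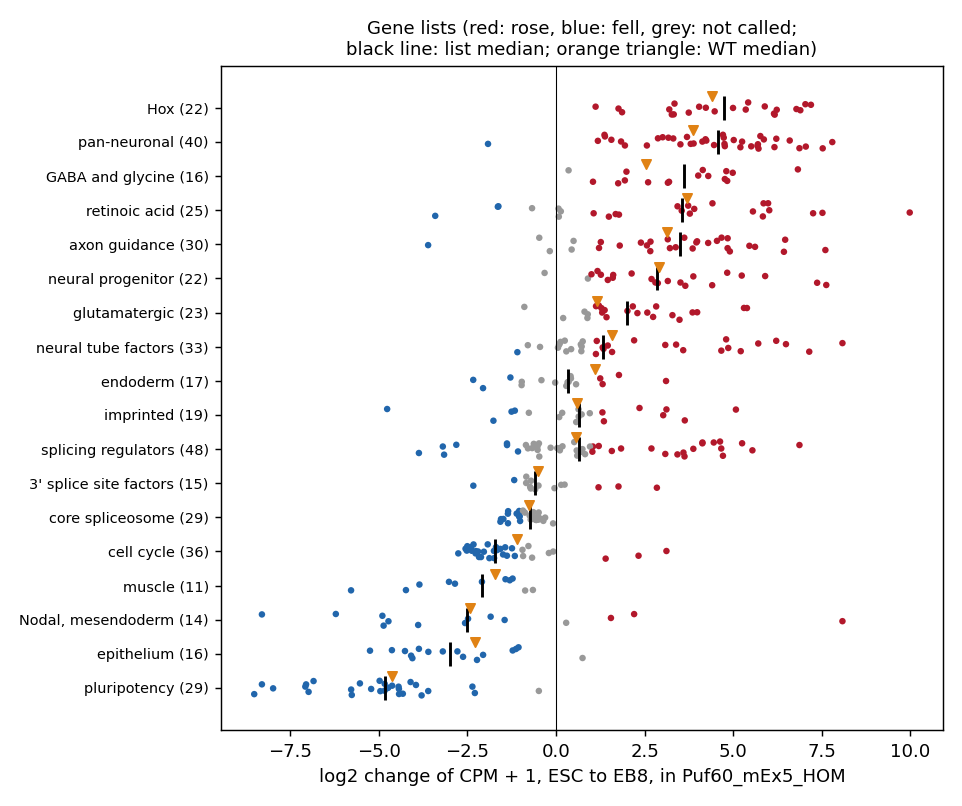
Log2 change from ESC to EB8 in Puf60_mEx5_HOM for members of gene lists, with the number of genes tested in brackets. Each point is a gene (red rose, blue fell, grey not called), black lines are the list medians in the line and orange triangles those in WT. Pluripotency, epithelial, mesendoderm and muscle lists lie left of 0, and Hox, neuronal and retinoic acid lists right of it.

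The pluripotency network fell almost in full. Of 29 tested members, 28 fell and 0 rose, with a median log2 change of -4.83 (WT -4.61). Pou5f1, which encodes the core pluripotency factor OCT4, had 1645 and 1515 CPM in ESC A and B and 4.41 and 2.46 in EB8 A and B. The ESC libraries lay far above those of EB8, and the gene fell by 8.51 ± 0.84 on the log2 scale (limma, adjusted p = 6.56e-08). Nanog, its partner in the network, had 211.7 and 227.7 CPM and then 0.895 and 0.614. Zfp42, a marker of naive stem cells, went from 296.8 and 330.9 to 1.36 and 1.39 CPM. Tdh, the threonine dehydrogenase on which mouse stem cells rely, went from 651.3 and 705.0 to 1.57 and 1.81, and Dppa5a from 956.1 and 1038 to 7.87 and 5.2. In all of these the stages did not overlap. Tet2, with 24.2 and 16.9 CPM as stage means and a change of -0.48, was the member that was not called. Sox2 has no introns in the table and could not be read.

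Genes of the step after naive pluripotency fell too. Of 12 tested genes of formative pluripotency, 9 fell and 2 rose. Dnmt3l, a cofactor of de novo DNA methylation, had 453.3 and 335.5 CPM at ESC and 2.01 and 0.970 at EB8 and fell by 7.33 ± 0.66 (limma, adjusted p = 1.23e-08). Dnmt3b, the methyltransferase it assists, fell by 5.86, from a mean of 721 to 11.4 CPM. Etv5, an effector of FGF and ERK signalling, fell from 287.9 and 292.5 to 1.67 and 1.00 CPM. Among 13 DNA methylation genes, Tet1 fell by 2.79 and Tet3 rose by 2.67, so the oxidising enzymes moved in opposite directions.

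Signals and coats of the stem cell state went the same way. Of 14 genes of Nodal signalling and mesendoderm 10 fell, among them Tdgf1, the Nodal co-receptor (513.2 and 485.4 to 0.401 and 0.808 CPM), Lefty1, a Nodal inhibitor (down by 6.21), and Nodal itself (down by 4.90). Lhx1 stands in that list as well but rose, as described with the neural tube. Of 16 epithelial genes 15 fell, with a median of -2.99 (WT -2.28). Cdh1, which encodes E-cadherin, had 839.8 and 789.9 CPM at ESC and 24.6 and 17.1 at EB8. Its loss, 5.25 ± 0.45 on the log2 scale, compares with 4.25 in WT, and the difference between them was not called (adjusted p = 0.414). Of 11 muscle and contractile genes 9 fell, led by the smooth muscle genes Tagln (down by 5.78) and Acta2 (down by 4.23).

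The retinoic acid response was large. Of 25 tested genes of retinoid metabolism and signalling 18 rose and 3 fell, with a median of 3.55 (WT 3.70). Cyp26b1, which degrades retinoic acid, had 0.338 and 0.438 CPM at ESC and 1249 and 1574 at EB8. It had the largest rise among called genes with at least 5 RPKM in the higher group, 9.98 ± 0.49 on the log2 scale (limma, adjusted p = 1.94e-12). Cyp26a1, its paralogue with the same activity, went from 2.37 and 2.63 to 533.6 and 532.9 CPM. Rarb, a receptor that is itself a classical target of retinoic acid, went from 0.135 and 0.25 to 211.6 and 223.9, a rise of 7.52 ± 0.11 (limma, adjusted p = 3.67e-22). In each of these genes both EB8 libraries lay far above both ESC libraries, and a difference of the course from that of WT was not called (adjusted p = 0.951, 0.851 and 0.206).

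Other members carry the retinoid, bind it or convert it. Dhrs3, which turns retinal back into retinol, rose from 3.75 and 2.60 to 241.6 and 282.3 CPM. The retinoic acid carriers Crabp1 and Crabp2 rose by 3.73 and 4.42. Among receptors, Rara rose by 1.06 and Rxra by 1.69, while Rarg fell by 3.40 and Rxrg by 1.64. Of the enzymes that make retinoic acid, Aldh1a3 fell by 1.62, and Aldh1a2 (-0.67) and Aldh1a1 (0.14) were not called. Thus the degrading enzymes Cyp26a1 and Cyp26b1 and the carriers Crabp1 and Crabp2 rose, and no synthesising Aldh1a enzyme did. Cyp26c1, another degrading enzyme, did not pass the filter, with 0.439 and 0.25 CPM at ESC and 0.062 and 0.032 at EB8. Meis1 and Meis2, partners of Hox proteins in binding DNA, rose by 5.86 and 5.56.

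The promoters of Cyp26a1 and Rarb are shown because the retinoic acid receptor is known to bind direct repeats in this pair of genes. The sequences are 300 bases around the start site from RefSeq (build GRCm38.p6): Cyp26a1 at chr19:37697558-37697857 on the plus strand and Rarb at chr14:16575427-16575726 on the minus strand. The motif searched on both strands was NGNTCANNNNNNGNTCA, a direct repeat with a spacer of 5, in capitals below, from -32 to -16 of the start site in Cyp26a1 and from -53 to -37 in Rarb. Both promoters hold it, and so do 267 of the 27025 genes with a promoter in the table (0.988%). These 2 are 10.5% of the 19 retinoid genes with a promoter there, and 0 of 17 Hox promoters hold it. A match describes letters only.
Cyp26a1 promoter: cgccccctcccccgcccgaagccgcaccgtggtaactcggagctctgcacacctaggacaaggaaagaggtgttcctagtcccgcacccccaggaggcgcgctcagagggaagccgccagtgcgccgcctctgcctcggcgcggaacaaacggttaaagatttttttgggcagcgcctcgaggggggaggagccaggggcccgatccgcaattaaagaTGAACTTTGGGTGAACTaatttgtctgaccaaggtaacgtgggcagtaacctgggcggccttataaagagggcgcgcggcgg
Rarb promoter: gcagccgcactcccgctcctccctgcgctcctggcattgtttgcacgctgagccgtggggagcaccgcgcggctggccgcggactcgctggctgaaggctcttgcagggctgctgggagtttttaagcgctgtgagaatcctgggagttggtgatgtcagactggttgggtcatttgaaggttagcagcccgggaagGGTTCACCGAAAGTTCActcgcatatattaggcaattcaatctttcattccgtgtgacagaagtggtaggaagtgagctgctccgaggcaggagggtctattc

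Hox genes, which set position along the body axis, all rose in the line where they could be tested. They were 22 of 22, with a median of 4.74, and 21 rose in WT. The median was 6.02 when the 4 members without an ESC read were given a log2 ratio without the added 1. That ratio was taken over a floor of 3 reads at ESC, so the value of 6.02 mixes scales. Of the 30 listed, 8 did not pass the filter on low values, so the 22 are those expressed in some library. Hoxb9, a gene of the spinal cord level, had 0.372 and 0.532 CPM at ESC and 196.5 and 227.4 at EB8. Hoxb5 had 0.135 and 0.063 and then 123.2 and 136.8. The anterior Hoxb1 rose less in value, by 1.87, and at EB8 it stood at 2.99 and 3.49 CPM. Markers in front of the Hox domain were scarce: of 15 listed forebrain and midbrain genes 5 could be tested, and 3 fell and 2 rose. Otx2, the head organiser gene, fell from a mean of 15.1 to 0.343 CPM, while the cortical factors Lhx2 and Emx2 rose to means of 3.44 and 1.80 CPM.

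Transcription factors that pattern the neural tube along its back-to-front axis rose in part. Of 33 tested, 19 rose and 1 fell. Lhx1, a marker of several spinal interneuron classes, had 0.101 and 0.282 CPM at ESC and 288.7 and 357.7 at EB8, a rise of 8.08 ± 0.16 (limma, adjusted p = 7.70e-21). Dbx1, which marks the middle of the tube where V0 interneurons arise, had 0 reads in both ESC libraries and 132.4 and 149.7 CPM at EB8. Pax2 and Lhx5, expressed in inhibitory interneurons of the cord, went from 0.405 and 0.501 to 100.1 and 114.2 and from 0.203 and 0.125 to 88.8 and 120.7 CPM. The dorsal factors Pax3 and Pax7 rose by 5.21 and 4.86. Of ventral genes, Lhx3 rose by 3.39 and Isl1 by 1.46. Nkx6-1 and Shh, with at most 0.034 CPM at ESC, also rose, but only to 1.64 and 0.937 and to 2.19 and 2.00 CPM. Olig2 and Nkx2-2 stood at EB8 means of 0.063 and 0.251 CPM and were not called, and Nkx6-2 fell by 1.09. Motor neuron factor Mnx1 (0.73) was not called. Genes of the back, the middle and in part the front of the tube thus rose.

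Progenitor genes rose in 20 of 22 tested and fell in none, with a median of 2.84 (WT 2.92). Hes5, the Notch effector of neural progenitors, had 0.642 and 0.407 CPM at ESC and 237.3 and 264.3 at EB8. Fabp7, the fatty acid binding protein of radial glia, went from 0.878 and 1.35 to 429.0 and 399.7. Sox9 rose by 5.90 and Pax6 by 2.14, the latter from 28.1 and 25.2 to 110.8 and 130.8 CPM. Hes1, the other main Notch effector, changed by -0.32 and was not called. Notch pathway genes as a list rose in 12 of 24 with a median of 0.95.

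Neuronal genes were already present at this stage. Of 40 tested pan-neuronal genes 39 rose and 1 fell, with a median of 4.59 (WT 3.87). Dcx, the microtubule protein of migrating neurons, had 0.068 and 0 CPM at ESC and 128.2 and 144.2 at EB8. Mapt, which encodes tau, had 6.52 and 4.76 and then 321.9 and 360.8. Tubb3, neuronal tubulin, went from 88.4 and 64.2 to 620.6 and 762.6. Nefh, the heavy neurofilament of mature axons, was the member that fell, by 1.92. Of 16 GABA and glycine genes 15 rose, of 23 glutamatergic genes 18, and of 10 cholinergic genes 7. Slc6a5, the glycine transporter of inhibitory neurons, had 0 reads at ESC and 26.6 and 28.4 CPM at EB8. Gria2, an AMPA receptor subunit, had at most 0.031 CPM at ESC and 41.0 and 42.1 at EB8. Of 30 axon guidance genes 25 rose, led by Robo3, the receptor of commissural axons, from 1.05 and 0.689 to 332.5 and 390.5 CPM.

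**Figure D3:**
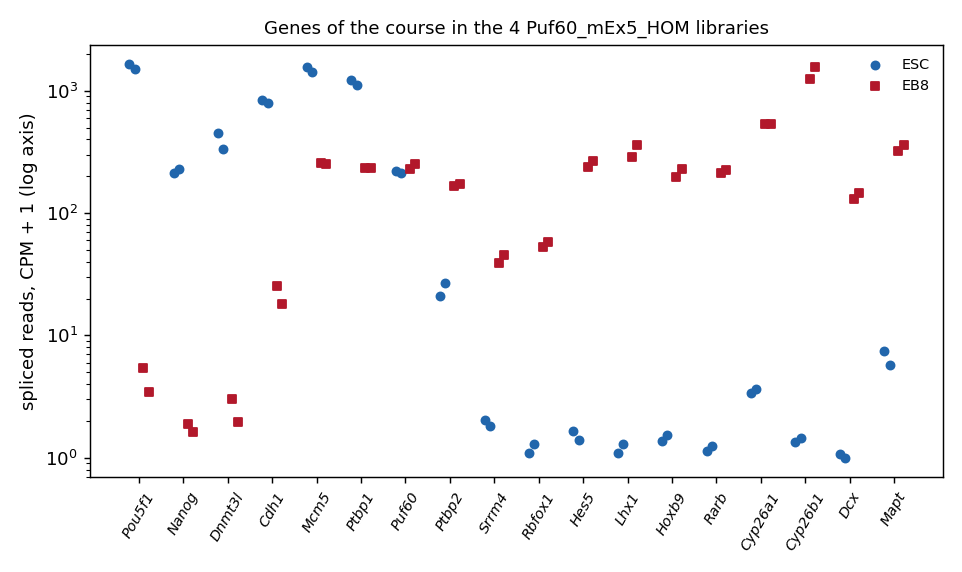
Spliced reads (CPM + 1, log axis) of 18 genes in each library of Puf60_mEx5_HOM, with ESC as circles and EB8 as squares. Replicates of a stage lie close together; Pou5f1, Nanog, Dnmt3l, Cdh1, Mcm5 and Ptbp1 are higher at ESC, Puf60 is similar at both stages, and the genes to its right are higher at EB8.

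Proliferation genes fell. Of 36 cell cycle genes 27 fell and 3 rose, with a median of -1.72 (WT -1.09). Mcm5, part of the replicative helicase, had 1562 and 1422 CPM at ESC and a mean of 253.7 ± 5.22 (SD, n = 2) at EB8. Those that rose were the cell cycle inhibitors Cdkn1c (77.1 and 66.1 to 600.0 and 656.6 CPM) and Cdkn1b (1.40 on the log2 scale) and the cyclin Ccnd2 (2.33). The G1 kinase Cdk4 was not called. Of 22 genes of the p53 pathway 10 fell (5 with scaling to the total) and 3 rose, and Trp53 itself fell by 2.90. Of 19 imprinted genes 7 rose and 4 fell (9 and 2 with scaling to the total). Dlk1, a Notch-like ligand of the imprinted cluster that also holds Meg3, rose from 8.48 and 8.70 to 300.8 and 346.8 CPM, and Meg3 rose by 3.03. H19 rose by 1.31, with 62.1 and 81.0 CPM at ESC and 223.8 and 140.7 at EB8. Its growth-promoting neighbour Igf2 (59.7 and 28.1 CPM at EB8) was not called.

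Markers of other cell types show what else the embryoid bodies could hold. Of 17 endoderm genes 4 rose and 3 fell, and their summed level was 736.7 and 725.1 CPM at ESC and 999.4 and 816.8 at EB8, against 1650 and 1296 in WT embryoid bodies. Sox7 of primitive endoderm rose by 3.11. Of 12 endothelial and blood genes 0 rose (2 with scaling to the total), with sums of 152.8 and 161.6 at ESC and 25.5 and 14.1 at EB8. In 20 genes of mesenchyme and matrix 9 rose, among them Col3a1 (from a mean of 16.2 to 217.8 CPM) and Postn, and 2 fell, Thy1 and Fn1. The EB8 libraries of Col3a1 and Postn lay far apart, with 302.0 and 41.7 CPM in A and 133.5 and 18.6 in B. The summed level of the list was lower at EB8, 1829 and 1480 CPM against 2537 and 2945 at ESC, and fibronectin (Fn1) went from a mean of 1809 to 510.0. Of 13 astrocyte-linked genes 7 rose, among them Sparcl1 and Slc1a2, which radial glia also express, and of 9 oligodendrocyte genes 4 rose. Labelled stem cells and embryoid bodies therefore held the markers of their stages.

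Splicing factors changed along with these programmes. Of 48 splicing regulators 20 rose and 7 fell, with a median of 0.65 beside 0.06 over all genes. Ptbp1, the repressor of neuronal exons, had 1233 and 1118 CPM at ESC and 231.1 and 234.2 at EB8 and fell by 2.33 ± 0.20 (limma, adjusted p = 2.44e-09). Ptbp2, its neuronal paralogue, went the other way, from 19.8 and 26 to 166.3 and 173.4. On the deposited RPKM scale, which corrects for length, Ptbp1 stood at 397 and Ptbp2 at 15.7 at ESC, and at 76.7 and 106 at EB8, so the order of the paralogues turned. Srrm4, the microexon activator, had 1.05 and 0.814 CPM at ESC and 38.1 and 44.5 at EB8, and Srrm3 had 1.25 and 0.751 and then 48.2 and 50.5. Rest, the repressor of neuronal genes outside neurons and itself a target of SRRM4, fell from 51.1 and 36.4 to 3.61 and 4.33.

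Families of neuronal RNA-binding proteins rose with them. Rbfox1 went from 0.101 and 0.282 to 52 and 57.0 CPM, Rbfox3 (NeuN) from 0.980 and 2.13 to 87.4 and 100.9, and Celf3 from 0.709 and 0.626 to 179.1 and 210.4. Nova1 rose by 4.63 and Nova2 by 3.43. The epithelial regulators went down: Esrp1 from 55.1 and 50.2 to 3.27 and 2.17 CPM, and Esrp2 by 3.19 on the log2 scale. Mbnl1 (0.60) was not called.

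Of 15 tested members of a list drawn up around the 3′ splice site, Puf60 among them, Ptbp2, Tia1 and Uhmk1 rose. Ptbp1 and U2af1 fell, so that neither share exceeded that over all genes. The median was -0.58, and -0.20 and -0.17 with scaling to the total and quantile scaling. U2af1, the small U2AF subunit that reads the AG of the 3′ splice site, had 306.5 and 284.4 CPM at ESC and 131.0 and 129.1 at EB8, a fall of 1.18 ± 0.10 (limma, adjusted p = 2.46e-10) beside 1.10 in WT. With these scalings its change was -0.80 and -0.83, under 2-fold. Its large partner U2af2 had 837.9 and 739.1 and then 522.4 and 526.4 CPM (-0.58, under 2-fold). Among 29 core spliceosome genes 12 fell and 0 rose with the main scaling, but only 3 and 4 fell with scaling to the total and quantile scaling. The median was -0.74 and stayed below 0 at -0.36 and -0.57. Prpf8, the protein at the centre of the spliceosome, went from 2119 and 2082 to 654.3 and 767.2 CPM.

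The course of the deleted line was set against that of the parental cells. Since these differ in more than exon 5, the part of the edit in any difference was not tested. Over 13929 genes the log2 changes of the lines had a Pearson correlation of 0.976, given as a description over genes, which are not independent. Genes called in both courses numbered 5099, all in the same direction, which is 83.1% of the calls of the line and 91.8% of those of WT. The difference between the courses was tested itself: the course was higher in the deleted line for 162 genes (1.16%) and lower for 29 (0.208%). The number on the lower side was the less stable: it was 84 with only the libraries of the groups compared, 54 with quantile scaling, 49 with scaling to the total and 7 without WT EB8 replicate A. Most of the 162 were genes of the course, as 144 rose in the line and 110 rose in WT. Rises made up 84.8% of the 191 calls, and 73.1% with scaling to the total. The total depended on single libraries: it was 98 without WT EB8 replicate A, 271 without WT EB8 replicate B, 123 without EB8 replicate B of the deleted line and 196 without its replicate A. With voom weights 53 passed.

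**Figure D4:**
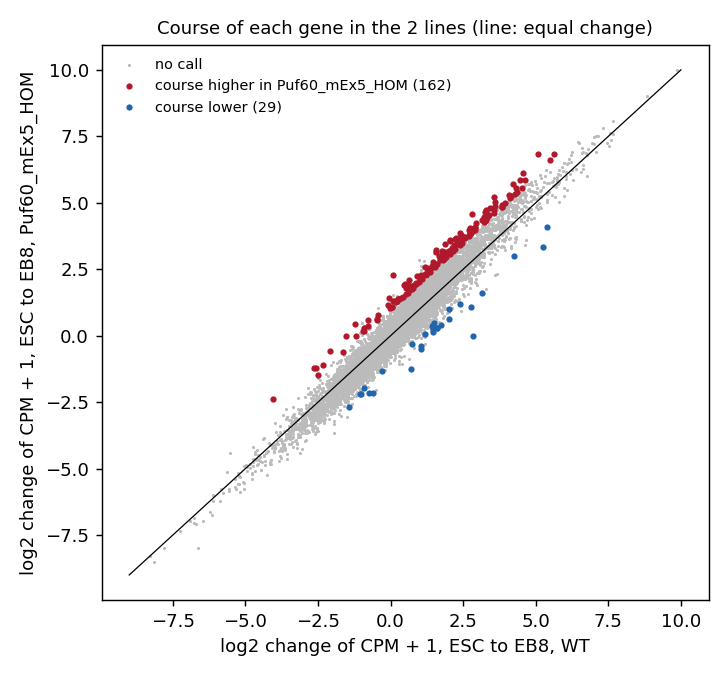
Log2 change of CPM + 1 from ESC to EB8 in Puf60_mEx5_HOM (vertical) against WT (horizontal) for 13929 genes, with the line of equal change. Red points mark the 162 genes whose course was higher in the deleted line and blue points the 29 whose course was lower; the cloud follows the line of equal change.

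Pan-neuronal, inhibitory and glutamatergic genes lay on the higher side. Of 40 pan-neuronal genes 37 had a larger value of the change than in WT, with a median difference of 0.51 (0.03 over all genes, of which 7597 of 13929 were above 0), and 6 were called. Of 16 inhibitory genes 15 were higher in value and 7 were called, with a median of 0.85. Of 23 glutamatergic genes 21 were higher in value and 3 were called, with a median of 0.57. Cholinergic and progenitor genes did not lie on that side: 4 of 10 and 5 of 22 were higher in value, with medians of -0.13 and -0.20, and 0 were called. Outside the neuronal lists, 12 of 13 astrocyte-linked genes were higher in value and 2 were called, with a median of 0.39. The same held for 22 of 24 genes of glycolysis and the hypoxia response in value, with a median of 0.78 and 0 called. Syp, a synaptic vesicle protein, had 2.09 and 2.25 CPM at ESC and 114.4 and 117.7 at EB8, against 4.16 and 4.09 and then 58.9 and 60.6 in WT. The EB8 libraries of the line lay above those of WT and its ESC libraries below, a difference of 1.64 ± 0.18 (limma, adjusted p = 2.95e-05). Sst, the neuropeptide somatostatin, reached 105.7 and 123.9 CPM against 31.6 and 39.0 in WT. Mapt, Myt1l, Rbfox1 and Rbfox3 also passed the adjusted p, with differences of 0.93, 1.11, 1.03 and 1.11. Cell cycle genes lay on the other side in value, 4 of 36 above 0 and a median of -0.64, and 0 were called. At EB8 their summed level was 4047 and 4103 CPM in the line and 6112 and 5388 in WT.

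Grb10, an imprinted adaptor of insulin signalling, had 6.82 and 9.17 CPM at ESC and 2.50 and 3.01 at EB8 in the line, and 20.4, 17.9, 34.2 and 29.5 in WT, so it fell in 1 line and not in the other. Foxa2, the endoderm and floor plate factor, was the member called lower of both the endoderm and the neural tube lists, with changes of 0.29 in the line and 1.59 in WT. Kdm5d belongs to the Y-linked genes, which account for 3 of the 191 calls, 2 higher and 1 lower. These genes had 0 reads in the line at both stages, so their differences reflect WT only. No member of the retinoic acid, Hox, pluripotency, progenitor, Notch or core spliceosome lists was called for a difference from WT.

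Against the line with constitutive exon 5 on both alleles the difference was larger in number. The course of 982 genes was higher in the deleted line (7.05%) and that of 626 was lower (4.49%), so rises made up 61.1% of calls, or 48.2% with scaling to the total, which took the median over genes from 0.04 to -0.11. This comparison and the one with WT share the 4 libraries of the deleted line, so their values are given side by side only. For Mapt the differences were 0.93 from WT and 3.42 from the constitutive line, for Syp 1.64 and 1.80, and for Rbfox1 1.03 and 2.25. Of the pan-neuronal list 22 of 40 were called higher than in the constitutive line, with a median of 1.18, and of the inhibitory list 11 of 16. Of the cell cycle list 15 of 36 were called lower, with a median of -0.98, and of the contractile list 7 of 11. Among contractile genes, Tagln and Acta2 started from unlike ESC levels. Their ESC means were 174.3 and 114.1 CPM in the deleted line and 23.8 and 2.12 in the constitutive line. At EB8 they were 2.22 and 5.32 in the deleted line and 4.61 and 2.33 in the constitutive line. Puf60 itself moved by 0.38 more in the deleted line (limma, adjusted p = 0.00492), under the 2-fold threshold.

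Splicing was tested on 17428 events with at least 10 reads in each of the 20 libraries of ESC and EB8 and a mean PSI of 5 to 95, and an event is said to rise or fall at an adjusted p under 0.05 and at least 10 points of PSI. In the deleted line 1863 events rose (10.7%) and 1319 fell (7.57%), in 2072 genes. In WT 1486 rose (8.53%) and 945 fell (5.42%), and 1941 events were called in both courses, 1940 of them in the same direction. No event was called for a difference between the courses of the line and WT (0 of 17428, 0.0%, limma). At an unadjusted p under 0.05 there were 841 such events, or 4.83%, and the unweighted fit also called 0. Of genes with a called event, 39.8% also had a called change of expression, beside 36.9% of genes with a tested event and 44.1% of all genes tested.

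Microexons moved mostly one way. Of 327 tested, 209 rose and 18 fell, which is 63.9% rising beside 10.7% of all events, and 13.95% of the 5879 longer cassette exons. Exons near a PSI of 0 at both stages did not pass the filter on mean PSI, so shares of rises depend in part on that filter. An ESC PSI under 10 was found in 162 of the 209 microexons and in 296 of the 820 longer cassette exons that rose. The median PSI of the 327 was 4.62 and 5.15 in ESC A and B and 48.5 and 50.6 in EB8 A and B of the deleted line. In WT it was 4.50 and 5.94 and then 35.1 and 40.1, and in the constitutive line 6.08 and 7.47 and then 32.5 and 28.9. At EB8 both libraries of the deleted line thus lay above those of the other lines, while at ESC they lay within the range of WT. In value, 251 of the 327 changed more upward in the deleted line than in WT, with a median difference of 8.24 points, but 0 were called for it. Larger changes than in WT were not particular to microexons. They were seen in 194 of the 209 microexons that rose, and in 671 of 820 longer cassette exons that rose and 651 of 782 that fell. These exons were picked by their calls in the line, which favours larger values there. The share of exons that rose was 68.9% at 3 to 15 nt, 60.5% at 16 to 27 nt, 23.1% at 28 to 51 nt, 12.5% at 52 to 150 nt and 13.8% above that. Lengths divisible by 3, which keep the reading frame, made up 79.8% of microexons tested and 86.6% of those that rose, and for longer cassette exons 46.4% and 60.1%. Among exons that fell they made up 88.9% of microexons and 51.8% of longer cassette exons.

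Microexons from among those with the largest changes are printed to show how short they are. The exon stands in capitals, with 15 bases of the neighbouring exons of the named transcript in lower case, all on mm10.
Fry, 9 nt, rose: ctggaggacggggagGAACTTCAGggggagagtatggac
Fry, 18 nt, rose: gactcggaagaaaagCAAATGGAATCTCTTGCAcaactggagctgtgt
Nav1, 24 nt, rose: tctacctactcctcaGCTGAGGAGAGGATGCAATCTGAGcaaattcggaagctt
Agrn, 12 nt, rose: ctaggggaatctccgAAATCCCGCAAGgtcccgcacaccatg
Tet2, 24 nt, fell: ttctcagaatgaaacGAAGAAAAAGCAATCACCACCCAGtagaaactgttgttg
Mroh1, 27 nt, fell: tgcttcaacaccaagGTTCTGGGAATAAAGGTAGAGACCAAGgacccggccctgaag

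Fry encodes a large protein of microtubules and the mitotic spindle. Its 9-nt exon at chr5:150461389-150461397 (plus strand, exon 9 of Fry-212) had a PSI of 0 and 2.23 in ESC A and B and 93.5 and 100.0 in EB8 A and B, on 47 to 63 reads per library. Its 18-nt exon at chr5:150488961-150488978, exon 17 of the same transcript, had 0 and 0 and then 82.8 and 88.0. The exons of this gene thus went from near absence to near full inclusion together. Nav1, a microtubule-guiding protein of growth cones, carries a 24-nt exon at chr1:135463915-135463938 (minus strand, exon 12 of Nav1-201) with a PSI of 2.88 and 4.74 and then 85.1 and 94.6. Agrn encodes agrin, the organiser of the neuromuscular junction, whose neural form carries added short exons. Its 12-nt exon at chr4:156169546-156169557 (minus strand, exon 30 of Agrn-203) had 1.01 and 8.57 and then 85.4 and 88.0, on 202 to 452 reads. In all of these the stages did not overlap, and the PSI changes in the line and in WT were 95.7 and 84.7 for the 9-nt exon of Fry, 85.4 and 80.0 for its 18-nt exon, 86.0 and 70.8 for Nav1 and 81.9 and 68.8 for Agrn. A 21-nt exon of Dctn4, a dynactin subunit, rose by 91.4 points, and a 10-nt exon of Porcn, which modifies Wnt proteins, by 82.3. The call for Porcn was lost without ESC replicate B or without EB8 replicate B.

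The 18 microexons that fell are the exception. Tet2, which oxidises 5-methylcytosine, lost a 24-nt exon at chr3:133479342-133479365 (minus strand, exon 7 of Tet2-204), from a PSI of 96.3 and 91.0 to 12.5 and 0, on 23 and 24 reads at EB8. Dnmt3b had a 17-nt event with 97.3 and 97.2 at ESC on 2596 and 2403 reads, and 22.7 and 10.6 at EB8 on 40 and 33, as the gene itself fell. Mroh1 had a 27-nt exon at chr15:76432372-76432398 (plus strand, exon 24 of Mroh1-202) with 86.0 and 93.9 and then 21.5 and 19.2. Its change of -69.6 points compares with -41.1 in WT. In these the stages did not overlap. The calls for Ncam1 (3 nt, -54.9 points) and Sgce (27 nt, -36.8 points) were lost in alternatives that leave out 1 library or use only the groups compared.

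**Figure D5:**
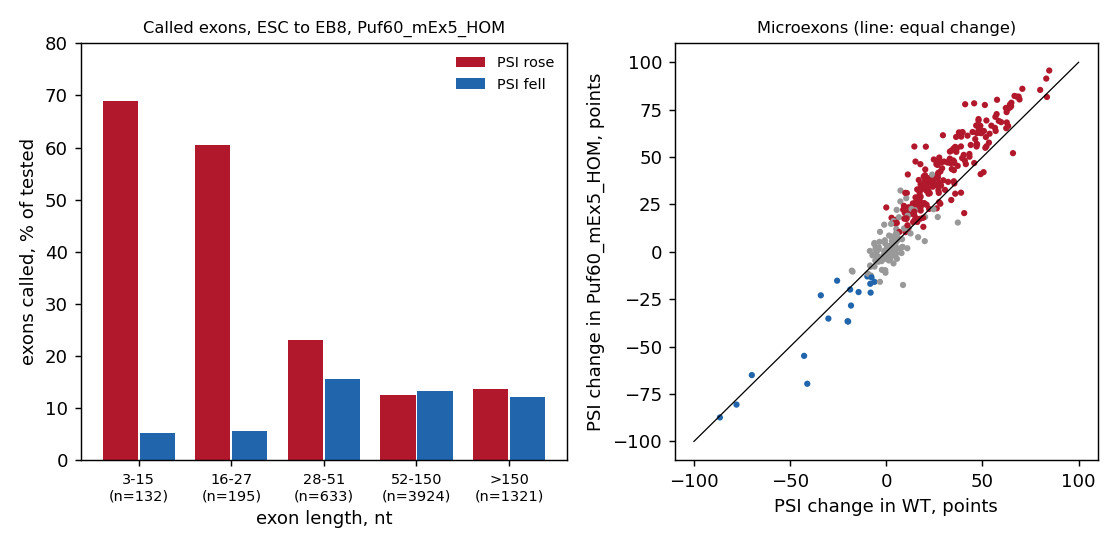
Left, the share of tested exons whose PSI rose (red) or fell (blue) from ESC to EB8 in Puf60_mEx5_HOM, in percent, by exon length in nt with the number tested. Right, the PSI change of the 327 microexons in the line (vertical) against WT (horizontal), in points; 251 lie above the line of equal change, and shares of rises drop from 68.9% at 3 to 15 nt to 12.5% at 52 to 150 nt.

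Longer cassette exons changed in both directions about as often, 820 up and 782 down of 5879. Gabbr1, a GABA-B receptor subunit, included an exon at chr17:37067214-37067364 with a PSI of 5.45 and 6.74 at ESC and 95.7 and 96.0 at EB8. Madd, a Rab regulator of vesicle release, included a 63-nt exon at 0 and 0 and then 82.1 and 80.0. Calca, which makes calcitonin or the neuropeptide CGRP depending on its exons, had a 704-nt event at 1.78 and 2.23 and then 85.4 and 87.0. Among those that fell, Enox1 had a 74-nt exon with 98.5 and 97.1 and then 0.927 and 0. Map2, the dendritic microtubule protein, had a 93-nt exon with 95 and 97.4 and then 1.38 and 1.20. Myo18a, an unconventional myosin, had a 45-nt exon with 93.0 and 98.6 and then 5.67 and 4.08. Each of these was close to a full switch and moved by 65.0 to 94.0 points in the same direction in WT. Synrg contributed 2 of the 6 largest falls, neighbouring exons of 38 and 86 nt, which share a transcript and are not independent.

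Of 5850 retained introns 609 rose and 333 fell. The ESC libraries differed from each other here: the median intron PSI was 6.68 in A and 9.88 in B, and 10.99 and 10.6 in EB8 A and B, so that ESC B lay nearer to EB8 than to ESC A. Without ESC replicate A there were 352 rises and 331 falls, so the excess of rises rested largely on that library. Without ESC replicate B there were 496 and 252. Among 3863 introns with balanced reads at both ends in the 4 libraries, 342 rose and 101 fell. Cfp, a complement factor, retained an 88-nt intron with a PSI of 13.4 and 37.0 at ESC and 100.0 and 100.0 at EB8, on 33 to 55 reads. Zfyve27, which promotes neurite growth, spliced a 164-nt intron with 100.0 and 92.9 and then 21.2 and 17.97. Several other introns with large values had unbalanced reads, such as those of Zfp219, Pfkp and Meg3.

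Alternative splice sites changed least often: 96 up and 84 down of 3202 alternative 3′ sites, and 129 up and 102 down of 2170 alternative 5′ sites. Ank3, the ankyrin of the axon initial segment, used a 3′ site that adds 15 nt with 92.7 and 98.0 at ESC and 15.3 and 10.4 at EB8. Synj1 and Cask, a phosphatase and a scaffold of synapses, shifted away from 3′ sites that add 9 and 15 nt by 79.0 and 78.8 points, and WT did so by 61.9 and 59.1. Neo1, a netrin receptor, shifted towards its site, from 0 and 4.27 to 63.4 and 66.5. Of 5′ sites, Enox2 went from 33.2 and 20.5 to 85.6 and 94.5, and Cryl1 from 64.4 and 62.2 to 0 and 12.04. The 5′ site of Prkab2 and a second site of Sephs1 were among those that lost the call without 1 library.

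Genes that encode splicing factors held changed events too. In this set 11 of 42 cassette exons rose and 3 fell, beside 13.95% and 13.3% of all cassette exons, and 12 of 44 introns rose and 5 fell, beside 10.4% and 5.69% of all introns. A 39-nt exon of Elavl2 rose by 64.2 points (WT 51.4), a 36-nt exon of Mbnl1 by 53.7 (WT 55.3) and a 24-nt microexon of Msi2 by 24.0 (WT 17.9). U2af1l4, a relative of U2af1, included a 96-nt exon more by 23.3 points (WT 21.9). Of 10 tested introns of Srsf genes, which encode SR proteins, those of Srsf6, Srsf5, Srsf2 and Srsf1 rose, by 17.9, 13.5, 11.3 and 10.1 points, and the other introns, of Srsf5, Srsf7, Srsf10 and Srsf11, were not called. In WT the changes were 14.1, 10.2, 6.81 and 6.88 points, of which those of Srsf6 and Srsf5 were called. The Srsf6 intron had unbalanced reads.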

How the data were processed

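RNA-seq of 30 libraries was analysed, 4 of them of the line described. The authors deposited a table of vast-tools output on mm10 with PSI in percent per library, each beside a quality string with other information, including junction read counts, and a table with 1 RPKM per group, per the file headers. Salmon 0.14.1, edgeR and the build mm10 appear in the submitters' processing notes with no role given, and whether counting used strand is not given in the sources used here.

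Spliced reads in the quality strings of 189118 introns of 25626 genes were summed per gene and library. CPM were computed from these counts with size factors by median of ratios. The 13929 genes that reached 1 CPM in 2 libraries or more were fitted with limma 3.58.1 in R 4.3.3 (trend and robust settings) on log2(CPM + 1), with all 30 libraries in 15 groups and 15 residual degrees of freedom. Genes without introns are missed, and overlapping or antisense genes that share junctions cannot be separated. Splicing was fitted with limma on log2 ratios of inclusion and exclusion reads plus 1, weighted by reads and an over-dispersion of 0.0290, over 20 libraries. Both scripts were tested on simulated data. Coordinates are of mm10, and sequences come from GENCODE transcripts and RefSeq promoters.

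Named genes are Puf60 and Rbm38, the 10 largest rises and falls among called genes with at least 5 RPKM and libraries that do not overlap, up to 4 called members of each of 36 lists and any member of 11 of them, the 10 largest differences between courses in each direction, and per class 6 events that rose and 6 that fell. Splicing factor events, Foxa2, Rest and other members named outside this rule were chosen after their values were seen. The members and lists were chosen with earlier results of these data known. Depth sets the precision: at 0 reads in a library up to 3 remain possible, for counting error only. The replicate letters did not pair libraries. A few items chosen by these rules are not reported here.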

Additional observations from a re-analysis of the deposited data

Results flagged for a closer look

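The following results were singled out because the course from ESC to EB8 differed between lines by a test of the difference itself (the interaction of line and stage in limma, at an adjusted p under 0.05 and 2-fold). There were 191 such genes between Puf60_mEx5_HOM and WT and 1608 between Puf60_mEx5_HOM and Puf60_pEx5_HOM.

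Higher courses than in WT, as differences of log2(CPM + 1) changes, were those of Mid1 (2.19), Sst (1.75), Cdh13 (1.74), Ndrg2 (1.68), Etv4 (1.66), Calb1 (1.66), Syp (1.64), Npy (1.58) and Rph3a (1.55). Sst and Npy are neuropeptides, Calb1 encodes the calcium buffer calbindin, Rph3a a synaptic vesicle protein and Cdh13 a cadherin. Etv4, an ETS factor downstream of FGF, fell in both lines, to 14.4 and 16.5 CPM in the deleted line and to 4.03 and 5.10 in WT. Ndrg2 was not called within the deleted line (23.5 and 17.8 to 34.2 and 23.2 CPM) and stood at 8.52 and 10.3 in WT at EB8. Mid1 had 2.26 and 2.79 CPM at ESC in the line against 288.4 and 299.8 in WT, so its difference starts from unlike levels.

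Lower courses were those of Kdm5d (-2.84), Grb10 (-1.96), Hk3 (-1.93), Car3 (-1.66), Agtr1a (-1.56), Large2 (-1.55), Atp2c2 (-1.55), Grrp1 (-1.42) and Serpinf1 (-1.40). Kdm5d is Y-linked and had 0 reads in the deleted line at both stages, so its value reflects WT only. Hk3, a hexokinase, reached 10.1 and 10.4 CPM in the line and 49.0 and 31 in WT. Car3, a carbonic anhydrase, reached 22.03 and 17.9 CPM against 74.4 and 41.2, and Agtr1a, the angiotensin receptor, 3.73 and 2.26 against 14.2 and 7.48. In these 3 genes WT EB8 replicate A was higher than replicate B. Of the genes named here, Etv4, Syp, Kdm5d and Grb10 were called in every alternative run, and each of the others lost the call in at least 1. The cause of these differences was not tested.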

How the results depend on the processing

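Counts of genes changed in either course, and of genes that differ from Puf60_pEx5_HOM, summed over both directions, stayed within 1.5 times in all alternatives run (scaling, filter, pseudocount, voom weights, fewer libraries in the fit, replicates left out). The 191 genes that differ from WT became 53 with voom weights, of which 39 were shared, and 98 to 271 when single replicates were left out; 19 genes were called in every alternative. At 20 points in place of 10, 1718 events changed in the line and 1279 in WT. The change of Puf60 exon 5 ranged from 2.60 to 5.14 points without single replicates. Values that changed sign were Cdk4 (0.49), Mbnl2 (-0.30), Rdh10 (-0.40) and U2af2 (0.034) with quantile scaling, Celf1 (0.23) and Zrsr2 (0.33) with scaling to the total, and the difference from WT for Lbx1 (-0.22) with voom weights. The cause was not tested. Over the alternatives of the named results, events kept their side of the threshold in 497 and lost the call in 21. Named genes of the course did so in 4768 and 52, and named differences from WT in 442 and 99, the losses falling in 29 genes.

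The replicate letters are shared between stages but do not pair the libraries: deviations of A from B at ESC and EB8 correlated at -0.00 for expression and -0.03 for PSI in the line. With the letter within each line as a replicate block, 6138 genes changed in the line and 5555 in WT, 190 differed from WT and 1613 from Puf60_pEx5_HOM, and 3179, 2435 and 0 events were called. Puf60 exon 5, with a change of 3.87 points, had an adjusted p of 0.0359 with the block (limma) and stayed under the 10 points needed for a call.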

Other observations

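Some lists not described above are given as values for the deleted line between ESC and EB8. Of 24 genes of glycolysis and the hypoxia response 6 rose and 4 fell with a median of 0.03, near the shares of 24.0% and 20.1% and the median of 0.06 over all genes. Of 17 stress response genes 9 fell and 1 rose (5 and 3 with scaling to the total), and Hspb1, a small heat shock protein, fell by 5.50. Of 13 interferon genes 5 fell, among them Bst2, which tethers virions (down by 3.05). Immediate early genes fell in 3 of 8 and rose in 1.

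In the glycolysis and hypoxia list 22 of 24 genes had a larger value of the change than in WT, with a median difference of 0.78, and 0 were called for the difference. The EB8 libraries of both lines overlapped in the summed level, with 20270 and 16180 CPM in the line and 12770 and 18180 in WT, where replicate A was the lower. Bnip3, a mitophagy receptor, had 230.0 and 139.1 CPM at EB8 in the line and 54.7 and 121.9 in WT.

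Of 7 genes of cells resembling the early embryo 5 fell and 0 rose (1 rose with scaling to the total). Of 8 trophoblast genes 4 fell (2 with that scaling). Of 11 neural crest genes 4 rose and 2 fell. Cholinergic receptor subunits rose, with Chrna3 up by 6.07 and Chrna4 by 4.41.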
